A study of Homo sapiens with 21 samples.

Results

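Repair of DNA damage was described here through 8 genes: ERCC1, ERCC4 and XPA of nucleotide excision repair, MSH6 and PMS2 of mismatch repair, FANCA and FANCD2 of the Fanconi anaemia pathway, and MGMT, which repairs alkylated guanine directly. They were taken by symbol from the 53515 Ensembl genes of the count files, and all 8 were found. Levels were measured by RNA sequencing in 21 libraries of 17 established cancer cell lines, 7 parental lines and 10 lines that had been made resistant by months of exposure to rising doses of a drug. IGROV-1/CDDP resists cisplatin and derives from the ovarian carcinoma line IGROV-1. U10 and U100 resist olaparib, which blocks the repair enzyme PARP, and derive from the ovarian line UWB1.289. PancB1Q and PancB1V resist 5-fluorouracil and derive from PancVB, a name for the pancreatic line Panc 03.27. HepG2S1 and HepG2S3 resist sorafenib and derive from the liver line HepG2. HCC4006ER resists erlotinib and derives from HCC4006P1, while HCC4006GR and HCC827GR resist gefitinib and derive from HCC4006P2 and HCC827P, all of them lung adenocarcinoma lines. Sequencing was done on 2 libraries for each of HepG2, HepG2S3, HCC4006P1 and HCC4006ER, and on 1 library for each of 13 lines. No label states that the libraries of 1 line came from separate cultures, so the spread between them may be technical.

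Cisplatin and other crosslinking drugs join bases within a strand or across both strands of DNA, and cells use several systems against such lesions. In nucleotide excision repair XPA helps to verify the lesion, and the nuclease formed by ERCC1 with ERCC4 (also called XPF) cuts the damaged strand on the 5′ side. Crosslinks between the strands call on the Fanconi anaemia pathway, in which the core complex that contains FANCA attaches ubiquitin to FANCD2 and its partner FANCI. Mismatch repair starts with MSH6, which helps to bind mispaired bases, and continues with PMS2, which nicks the strand. Loss of mismatch repair is known to let cells tolerate some alkylating and platinum drugs. MGMT takes the alkyl group from guanine onto itself and is used up in the reaction, and silencing of its promoter by methylation is well known in tumours.

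On GRCh37, the build to which the authors' reads were mapped, MGMT (ENSG00000170430) lies at chr10:131265454-131569247 on the plus strand. XPA (ENSG00000136936) lies at chr9:100437191-100459622 on the minus strand, ERCC1 (ENSG00000012061) at chr19:45910592-45982086 on the minus strand and ERCC4 (ENSG00000175595) at chr16:14013995-14046205 on the plus strand. MSH6 (ENSG00000116062) lies at chr2:47922669-48037202 on the plus strand and PMS2 (ENSG00000122512) at chr7:6010556-6048761 on the minus strand. FANCA (ENSG00000187741) lies at chr16:89793091-89883385 on the minus strand and FANCD2 (ENSG00000144554) at chr3:10068054-10143616 on the plus strand. Counts are of reads over the exons of a gene. Genes on the opposite strand overlap part of these exons: POLR1G shares 28.6% of the annotated exon bases of ERCC1, FBXO11 22.7% of those of MSH6 and ZNF276 19.6% of those of FANCA. The labels name a kit that marks strand and the methods also a 3′ kit for some libraries, and the strand setting of the counting is not given in the sources used here. PMS2 has near-identical pseudogene copies, so its counts are uncertain wherever reads could be placed at either.

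Gene counts summed to 9851195 in the shallowest library, 19498932 in the median library and 36639473 in the deepest. Levels are given as CPM, the count of a gene scaled to the total on genes, and 3 counts correspond to between 0.0819 and 0.305 CPM. HCC4006P1 replicate 1 has no counts for XPA, which lies with 8694 annotated genes in a stretch where that library is empty. Its total was corrected for the missing 18.1%, and XPA was taken from replicate 2 alone. The HepG2 libraries stood apart: 5.13% of 13005 genes differed more than 2-fold between them, against 0.0840% between those of HepG2S3, 1.79% for HCC4006P1 and 0.00714% for HCC4006ER. Defining markers of the tissue were weak in some lines. All 4 liver markers were above 1 CPM in HepG2, with a summed level of 16600 CPM, but 0 of 4 in HepG2S1 and 2 of 4 in HepG2S3, summed to 0.812 and 17.5 CPM. ALB was at 0 in HepG2S1. The fibroblast gene DCN had 399 CPM in HepG2S1, 345 CPM in HepG2S3 and 0.0136 CPM in HepG2, whereas PDGFRB, another gene of fibroblasts and pericytes, had 2.03, 6.88 and 8.09 CPM in the same order and the leukocyte gene PTPRC was at most 0.102 CPM. NKX2-1, a defining gene of lung adenocarcinoma, had 113 CPM in HCC4006P2 but 0.0656 CPM in HCC4006P1 and 0 in HCC4006ER. Of the 4 lung markers 1, EGFR, was above 1 CPM in HCC4006P1 and HCC4006ER, and 3 or 4 were in the other lung lines. Of the 4 pancreas markers 3 were above 1 CPM in each pancreatic line, with KRT7 at 876 CPM or more, and PDX1 was between 0.105 and 0.201 CPM. These markers did not set the pancreatic lines apart from all others. HepG2 also had 3 of 4 above 1 CPM, and KRT7 had 3004 CPM in U10. Of the 3 ovary markers PAX8 was between 357 and 664 CPM in the ovarian lines, WT1 was at most 0.488 CPM in all 5, and MUC16 had 0.473 and 0.554 CPM in the IGROV-1 lines and 30.1 CPM or more in the others. The part of these marker differences in the results below was not tested, and fewer cells of a kind cannot be told apart from less RNA per cell.

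Promoter sequences were compared first. RefSeq promoters (GRCh38.p14, from 250 bases before to 50 after each start) were given for all 8 genes, in 14 windows. Letters that E2F factors are known to bind at genes of S phase (TTCCCGC or TTGGCGC, on either strand) were found in at least 1 window of 5 of the 8 genes, ERCC1, FANCA, FANCD2, MGMT and MSH6. Over all 27305 genes with a window, 10.96% had them, and of all 35116 windows 9.23% did. Of the 14 windows of the 8 genes 8 had them, but 4 of these belong to MSH6 and some of those overlap. ERCC4, XPA and PMS2 had none in these windows. In 3 genes the letters lie within 28 bases of a start, and these stretches are shown. The levels of FANCD2 and FANCA went together across lines, as described below. FANCD2 and MSH6 both rose in the liver pairs and both fell in the lung pairs. They moved in opposite directions in IGROV-1/CDDP, U100 and PancB1Q, and their r over the 17 lines was 0.17. Both IGROV-1 lines, the lowest of all in MSH6, are among these 17, and r without them was not computed. Each stretch runs from 172 bases before to 28 bases after the start, 5′ to 3′ on the strand of the gene. The E2F letters are in capitals.
FANCD2: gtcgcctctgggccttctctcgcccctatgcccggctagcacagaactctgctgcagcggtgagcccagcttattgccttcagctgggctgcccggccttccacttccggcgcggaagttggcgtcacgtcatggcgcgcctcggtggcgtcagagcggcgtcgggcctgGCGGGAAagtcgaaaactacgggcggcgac
FANCA: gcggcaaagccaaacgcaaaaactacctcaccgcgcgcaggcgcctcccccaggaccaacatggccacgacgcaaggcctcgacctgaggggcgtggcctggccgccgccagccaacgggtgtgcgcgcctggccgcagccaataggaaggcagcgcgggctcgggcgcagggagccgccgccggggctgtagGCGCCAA
MSH6: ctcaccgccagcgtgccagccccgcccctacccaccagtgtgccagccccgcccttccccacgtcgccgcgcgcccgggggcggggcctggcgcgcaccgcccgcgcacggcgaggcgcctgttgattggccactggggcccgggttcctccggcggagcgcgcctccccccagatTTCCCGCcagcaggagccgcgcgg
The stretch of FANCD2 is chr3:10026265-10026464 on the plus strand, that of FANCA chr16:89816620-89816819 on the minus strand and that of MSH6 chr2:47782973-47783172 on the plus strand. In FANCD2 the letters begin 2 bases before the start, while they begin 22 bases after it in FANCA and 5 bases after it in MSH6. The letters in the windows of ERCC1 and MGMT lie farther away, beginning 223 and 195 bases before the start. The MGMT window also held 45 CpG dinucleotides and 8 GC boxes (GGGCGG), against a median of 14 CpG in all windows. Every other gene of the 8 also had a window above this median, with up to 39 CpG in MSH6, 37 in FANCA, 31 in ERCC4 and 24 in PMS2. ERCC1 had windows below it too, with 12 and 5. GC boxes were found in 7 of the 8 genes. These matches describe the letters and do not show that a factor binds there.

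All 8 genes were above 1 CPM in all 17 lines. The median level over the lines was 171 CPM for MSH6, 49.8 for FANCD2, 41.5 for FANCA, 27.8 for ERCC1, 26.7 for PMS2, 24.3 for ERCC4, 14.03 for XPA and 8.51 for MGMT. Per kilobase of annotated exon, the median level was 9.63 CPM for MSH6, 7.72 for XPA, 4.99 for ERCC1, 4.20 for FANCD2, 3.37 for FANCA, 2.38 for PMS2, 1.53 for ERCC4 and 1.30 for MGMT, so the order changes once length is taken into account. FANCD2, MGMT and MSH6 varied most between lines. The highest line had 15.9 times the level of the lowest for FANCD2, 14.2 times for MGMT and 13.8 times for MSH6, but 2.41 times for ERCC4 and 2.88 times for XPA.

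**Figure D1:**
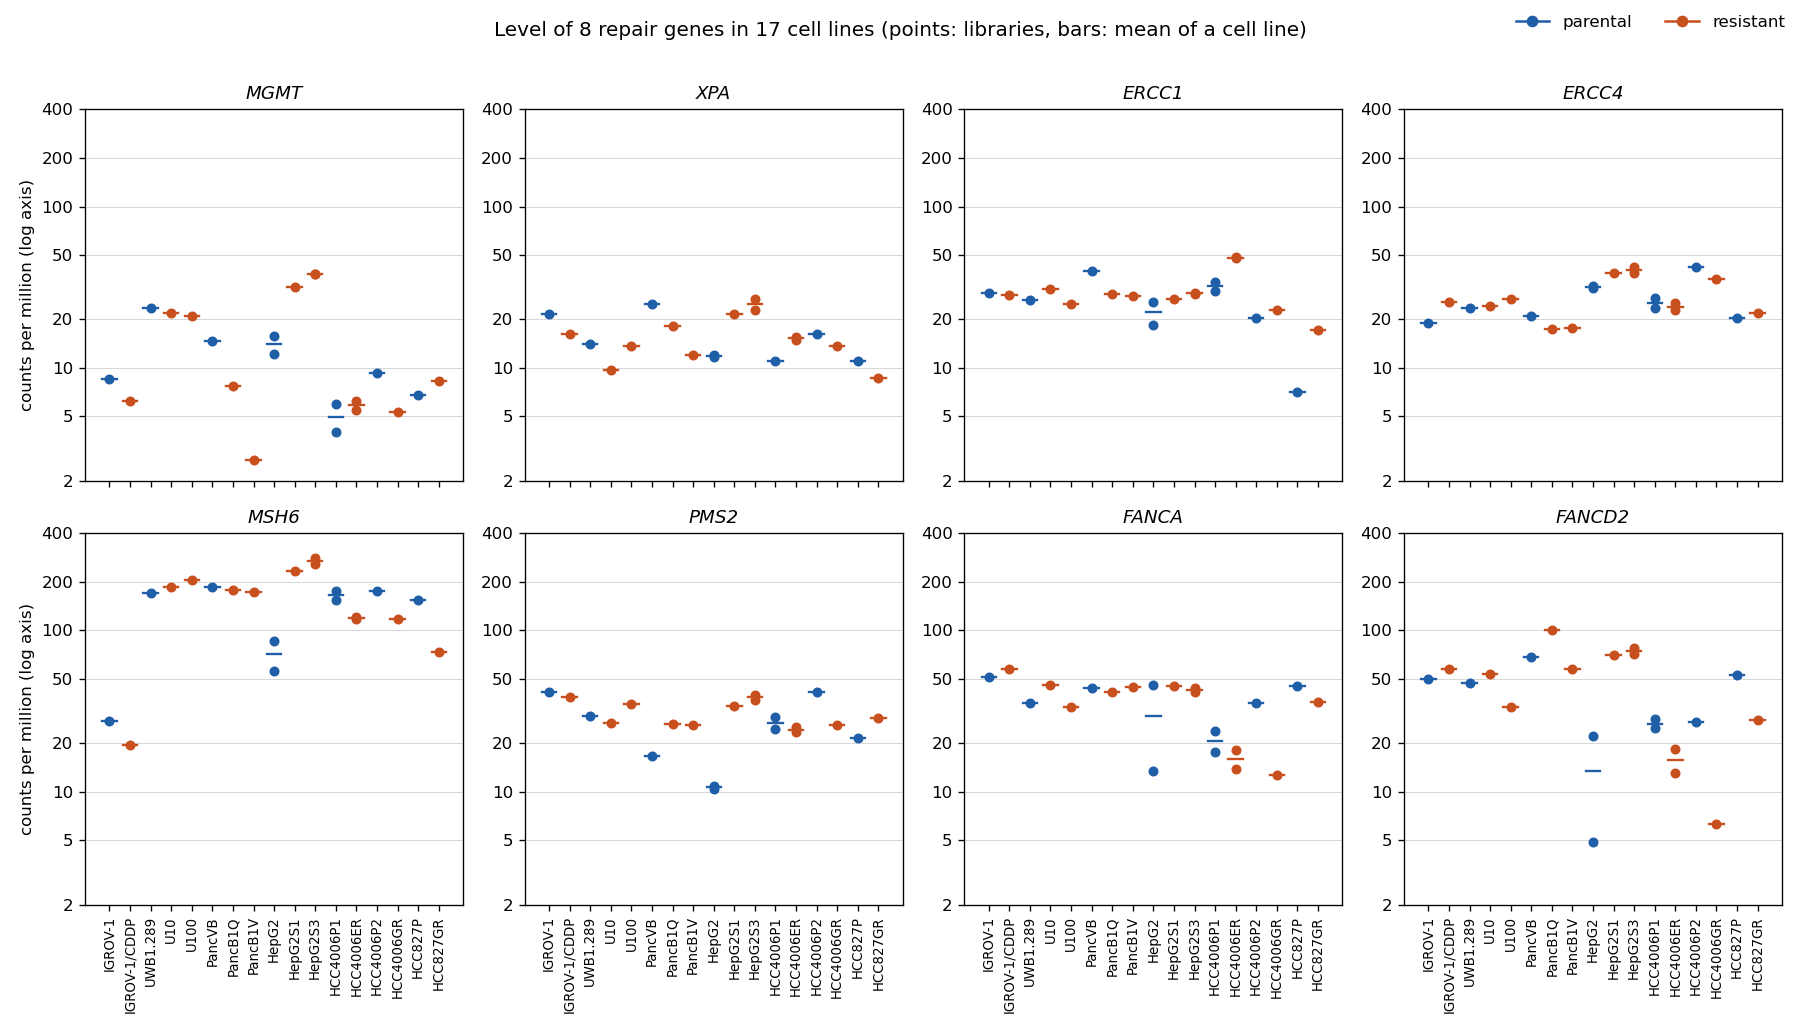
Level of each gene in CPM on a logarithmic axis, with 1 point per library and a bar at the mean of each cell line, parental lines in blue and resistant lines in orange. The MSH6 points of IGROV-1 and IGROV-1/CDDP lie at 27.5 and 19.5 CPM, below those of all other lines, and the HepG2 points of FANCA and FANCD2 are far apart.

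The order of the lines was read against the spread between libraries of 1 line, pooled over the lines with 2 libraries as an SD of log2(CPM + 1). For FANCA and FANCD2, 0 of the 16 steps between neighbouring lines exceeded 2 of these SDs (0.63 and 0.72), and the HepG2 libraries were the farthest apart for both. Without HepG2 the SDs were 0.23 and 0.21, and 1 step for FANCA and 4 for FANCD2 exceeded 2 of them. With HepG2 kept in the SD, 3 steps each exceeded it for MSH6, MGMT and PMS2, 2 for XPA and 1 each for ERCC1 and ERCC4. Without it the counts were 6 for MSH6, 3 for MGMT, 2 for PMS2, 0 for XPA, 4 for ERCC1 and 1 for ERCC4. Most neighbours in the order therefore do not differ beyond this spread, while the ends do. The widest step of any gene was that of MSH6, between IGROV-1 and HepG2, by 1.34 in log2(CPM + 1).

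The question of the front comparison was whether these repair genes differ in the ovarian line made resistant to cisplatin, a drug that crosslinks DNA. None of them differed by as much as 2-fold or 1.5-fold between IGROV-1 and IGROV-1/CDDP. Each line had 1 library, so the change has no replicate check of its own. MGMT had 8.51 CPM (234 counts) in the parental line and 6.21 CPM (157 counts) in the resistant line, a CPM ratio of 0.729 with a 95% interval of 0.592 to 0.897 that covers counting error only. In excision repair XPA had 21.5 and 16.2 CPM, with a ratio of 0.754 (0.663 to 0.856). Of the nuclease partners, ERCC4 had 19.0 and 25.5 CPM, a ratio of 1.34 (1.20 to 1.51), whereas ERCC1 had 29.3 and 28.4 CPM, a ratio of 0.968 (0.874 to 1.07). The interval of ERCC1 includes 1, so a difference was not detectable at this depth.

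MSH6 had the lowest ratio of the 8, with 27.5 CPM (756 counts) in the parental line and 19.5 CPM (494 counts) in the resistant line, a ratio of 0.710 (0.633 to 0.797). PMS2, the other mismatch repair gene of the 8, had 41.4 and 38.9 CPM, a ratio of 0.940 (0.862 to 1.02) that includes 1. Both Fanconi genes were slightly higher in IGROV-1/CDDP. FANCA had 51.6 and 57.6 CPM, a ratio of 1.12 (1.04 to 1.20), and FANCD2 had 49.8 and 58.0 CPM, a ratio of 1.17 (1.08 to 1.26). FANCA reached its highest level of all 17 lines in IGROV-1/CDDP.

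**Figure D2:**
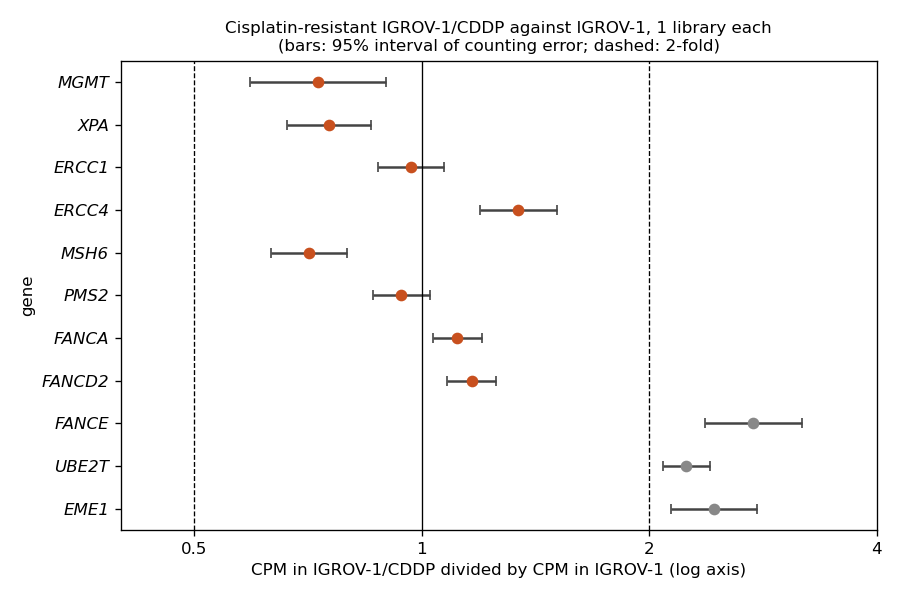
CPM in IGROV-1/CDDP divided by CPM in IGROV-1 on a logarithmic axis for the 8 genes (orange) and for 3 other repair genes past 2-fold (grey), with bars for the 95% interval of counting error and dashed lines at 2-fold. The 8 genes lie between ratios of 0.710 and 1.34, whereas FANCE, EME1 and UBE2T lie above 2.

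On the difference of log2(CPM + 1) the 8 genes lay between -0.47 for MSH6 and 0.41 for ERCC4, with a median of -0.07 beside -0.05 for all 14090 genes above 1 CPM. Of the 8 genes 0 passed 2-fold, where 12.7% of all genes did, and 0 passed 1.5-fold, where 30.5% did. A test was made in a fit of all 21 libraries, which takes the spread from the 4 lines with 2 libraries and assumes it for the others. The HepG2 libraries, which were far apart for FANCA and FANCD2, are among them. The standard errors of these genes were 0.63 and 0.72 in this pair, so the fit could miss changes in them. With edgeR 0 of 8 genes had an adjusted p under 0.05 in this pair, where 9.71% of all genes did. ERCC4 had an unadjusted p under 0.05, the only 1 of the 8 (log2 fold change 0.50, standard error 0.20, adjusted p = 0.172). With DESeq2 0 of the 7 genes other than XPA were called, where 9.79% of all genes were.

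Other genes of these pathways were read from lists of 49 genes found in the files. In IGROV-1/CDDP 3 of the 49 were past 2-fold, all higher, where 12.7% of all genes were past 2-fold and 5.50% were higher. FANCE, a subunit of the Fanconi core complex, had 9.20 and 25.3 CPM, a ratio of 2.75 (2.37 to 3.19). UBE2T, the enzyme that passes ubiquitin to FANCD2, had 42.5 and 95.3 CPM, a ratio of 2.24 (2.09 to 2.40). EME1, a partner of the crosslink nuclease MUS81, had 12.4 and 30.3 CPM, a ratio of 2.44 (2.14 to 2.77). In the fit of all libraries 2 of the 49 were called, where 9.71% of all genes were, both higher: FANCE (log2 fold change 1.53, adjusted p = 0.0454) and MAD2L2, a subunit of the translesion polymerase zeta (0.96, adjusted p = 0.0410), which is named after its values were seen. The 49 genes had a median log2 fold change of 0.22 in this fit beside 0 for all genes tested and 0.43 for the 12 proliferation genes, of which 0 were called and 10 had a higher CPM. The part of proliferation in the values of the repair genes was not tested.

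The low level of MSH6 set both IGROV-1 lines apart from all others. HepG2, the next line in the order, had 71.0 CPM (86.2 and 55.8 CPM in its libraries), 2.58 times the level of IGROV-1. The other 15 lines had a median of 172 CPM, 6.27 times that of IGROV-1, and the highest was HepG2S3 with 259 and 282 CPM. This is a difference between lines that was already present in the parental line. FBXO11, which overlaps MSH6 on the opposite strand, had 146 CPM in the parental line and 98.4 CPM in the resistant line, so it was lower beside MSH6. PMS2, in contrast, was high in IGROV-1, with 41.4 CPM beside 41.7 CPM in HCC4006P2, the highest line.

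**Figure D3:**
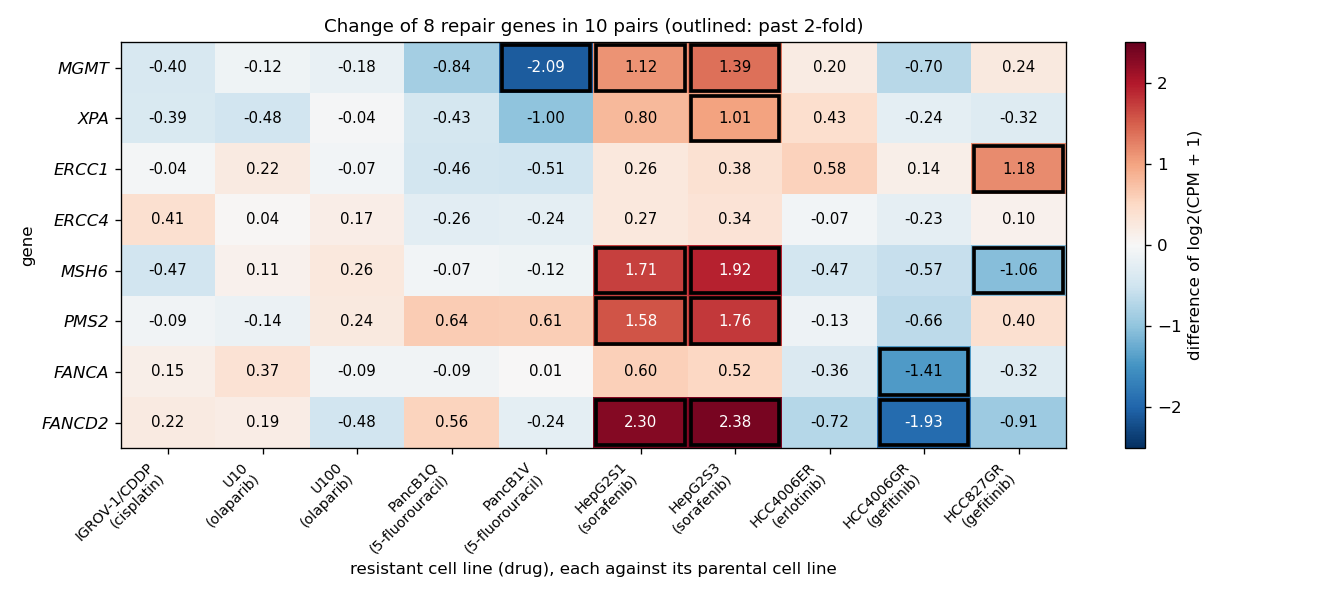
Difference of log2(CPM + 1) between each resistant line and its parental line for the 8 genes (rows) in 10 pairs (columns, with the drug), as colour and number, with an outline where the change is past 2-fold. The outlined cells are 9 in the columns of HepG2S1 and HepG2S3, 1 in that of PancB1V and 4 in those of HCC4006GR and HCC827GR, and IGROV-1/CDDP, U10, U100, PancB1Q and HCC4006ER have none.

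Over all 10 pairs, 14 of the 80 values for a gene in a pair were past 2-fold, 10 higher and 4 lower. Pairs that share a parental line share its libraries, so they are not independent of each other. No gene moved in the same direction in all 10 pairs. XPA was above 0 in 3 pairs and below 0 in 7, while MGMT and MSH6 were above 0 in 4 and ERCC1, ERCC4 and PMS2 in 6. ERCC4 varied least, between -0.26 and 0.41, and FANCD2 varied most, between -1.93 and 2.38. In the olaparib-resistant lines 0 of 8 genes were past 2-fold in U10 (11.4% of all genes) and 0 in U100 (8.13%). With edgeR 0 of 8 were called in either, where 4.38% and 1.47% of all genes were, with 0 of 8 at an unadjusted p under 0.05 and, among the 7 genes other than XPA, 0 called by DESeq2. The lowest adjusted p of the 8 in these lines was that of XPA in U10, which had 14.03 CPM in UWB1.289 and 9.75 CPM in U10 (log2 fold change -0.49, adjusted p = 0.277).

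In the pancreatic lines made resistant to 5-fluorouracil, MGMT was the gene that stood out. It had 14.7 CPM in PancVB, 7.77 CPM in PancB1Q and 2.70 CPM in PancB1V, the lowest level of any line. The ratio in PancB1V was 0.183 (0.139 to 0.239), and it was the only 1 of the 8 past 2-fold there (16.0% of all genes). In PancB1Q 0 of 8 were past 2-fold (15.5% of all genes). In the fit of all libraries MGMT fell in PancB1V by 2.38 on the log2 scale (standard error 0.33, edgeR adjusted p = 0.00171). The value in PancB1Q was -0.73 (adjusted p = 0.146), which did not pass.

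XPA also differed in PancB1V. It had 25.0 CPM in PancVB, its highest level of any line, 18.3 CPM in PancB1Q and 11.999 CPM in PancB1V, just short of 2-fold on the log2(CPM + 1) scale. The fit, for XPA on 20 libraries, gave -1.02 in PancB1V (standard error 0.21, adjusted p = 0.0205) and -0.28 in PancB1Q (adjusted p = 0.415). With MGMT this made 2 of 8 genes called in PancB1V, both lower, where 13.6% of all genes were called and 5.82% were called lower. PMS2 had 16.6 CPM in PancVB, 26.5 CPM in PancB1Q and 25.9 CPM in PancB1V. It was called in PancB1Q (0.86, adjusted p = 0.0271), the only 1 of the 8 there (13.1% of all genes, 7.12% higher), and had an adjusted p of 0.0538 in PancB1V (0.71). The call in PancB1Q was lost with DESeq2 (adjusted p = 0.0922) and without any 1 library of HepG2S3 or HCC4006ER (adjusted p from 0.0694 to 0.0757), and over all alternatives its adjusted p lay between 0.00913 and 0.0922.

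In the liver lines made resistant to sorafenib most of the 8 genes were higher than in HepG2. FANCD2, the ubiquitinated protein of the Fanconi pathway, had 22.2 and 4.88 CPM in the HepG2 libraries, 70.5 CPM in HepG2S1 and 78.1 and 71.4 CPM in HepG2S3. MSH6 had 86.2 and 55.8 CPM in HepG2, 234 CPM in HepG2S1 and 259 and 282 CPM in HepG2S3. PMS2 had 10.9 and 10.4 CPM in HepG2, the lowest of all lines, 33.8 CPM in HepG2S1 and 39.8 and 37.3 CPM in HepG2S3. For these genes every library of the resistant lines lay above both HepG2 libraries, though how many of all genes did so was not counted. In HepG2S3 27.5% of all genes were past 2-fold higher in CPM. MGMT was likewise higher in the resistant lines, with 15.8 and 12.2 CPM in HepG2, 31.7 CPM in HepG2S1 and 38.1 and 38.4 CPM in HepG2S3. XPA had 11.7 and 11.99 CPM in HepG2, 21.4 CPM in HepG2S1 and 22.8 and 26.8 CPM in HepG2S3. ERCC1 and ERCC4 differed less, and ERCC4 had 31.2 and 32.3 CPM in HepG2 and 38.7 and 41.9 CPM in HepG2S3.

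HepG2S3 and HepG2 have 2 libraries each and were tested on their own with edgeR. Of the 8 genes 5 rose, where 31.4% of all genes rose and 63.5% were called in either direction. FANCD2 rose by 2.14 (log2, standard error 0.67, adjusted p = 0.0377), MSH6 by 1.61 (0.24, adjusted p = 0.00270), PMS2 by 1.54 (0.15, adjusted p = 0.000695), MGMT by 1.13 (0.19, adjusted p = 0.00399) and XPA by 0.75 (0.16, adjusted p = 0.0108). The values of FANCA (0.22, adjusted p = 0.750), ERCC1 (0.08, adjusted p = 0.746) and ERCC4 (0.03, adjusted p = 0.863) did not pass. In HepG2S3 5 of 8 genes were past 2-fold in CPM, all higher (44.9% of all genes, 27.5% higher), and in HepG2S1 4 of 8, all higher (44.1%, 25.8% higher). The median log2 fold change of all genes in CPM was 0.28 and 0.23 in these pairs, and with TMM library sizes the changes of XPA in HepG2S3 (0.74) and MGMT in HepG2S1 (0.82) were under 2-fold. In the fit of all libraries the same 5 genes were called in HepG2S3 (55.8% of all genes, 27.2% higher) and FANCD2, MSH6, PMS2 and MGMT in HepG2S1 (45.1%, 21.2% higher). In HepG2S1 the call of MGMT was lost with DESeq2 (adjusted p = 0.124) and that of FANCD2 in the fit of 20 libraries (adjusted p = 0.0516).

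The HepG2 libraries disagreed for some of these genes, and the values depend on which is used. FANCA had 45.6 CPM in replicate 1 and 13.5 CPM in replicate 2, while HepG2S3 had 44.1 and 41.5 CPM. In edgeR fits with 1 HepG2 library FANCA gave -0.42 against replicate 1 alone and 1.36 against replicate 2 alone, so its direction turned. The spread in these 2 fits comes from the HepG2S3 libraries alone and does not measure that between the HepG2 libraries. FANCD2 gave 1.42 against replicate 1 alone and 3.62 against replicate 2 alone, and its call was lost with DESeq2 (adjusted p = 0.0554) and without HepG2S3 replicate 1 (adjusted p = 0.0505). MSH6, PMS2 and MGMT kept their calls without any 1 library. XPA lost its call without either HepG2S3 library (adjusted p = 0.0733 and 0.169).

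Proliferation genes moved beside them. The 11 proliferation genes with counts in all libraries summed to 1281 CPM in HepG2 replicate 1 and 420 CPM in replicate 2, and all 11 were lower in replicate 2. They summed to 3436 CPM in HepG2S1 and to 3656 and 3406 CPM in HepG2S3. In the test of HepG2S3 31.4% of all genes rose and 32.1% fell. Of the 12 proliferation genes 7 rose and 0 fell. Of the 49 other repair genes 29 rose and 9 fell, with a median of 0.75 beside -0.01 for all genes. The largest changes were those of EME1 (3.09), FANCB (3.01), EXO1 (2.97), FANCG (2.88) and UBE2T (2.58), where FANCB and FANCG are subunits of the Fanconi core complex and EXO1 is the exonuclease of mismatch repair. The part of proliferation in these differences was not tested.

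In the resistant lung lines FANCD2, MSH6 and FANCA had lower levels than in their parental lines. FANCD2 had 24.7 and 28.2 CPM in HCC4006P1 and 13.0 and 18.3 CPM in HCC4006ER, 27.0 CPM in HCC4006P2 and 6.35 CPM in HCC4006GR, and 53.2 CPM in HCC827P and 27.9 CPM in HCC827GR. MSH6 had 155 and 175 CPM in HCC4006P1 and 117 and 121 CPM in HCC4006ER, 174 CPM in HCC4006P2 and 117 CPM in HCC4006GR, and 154 CPM in HCC827P and 73.4 CPM in HCC827GR. FANCA had 17.7 and 23.8 CPM in HCC4006P1 and 13.8 and 18.1 CPM in HCC4006ER, 35.3 CPM in HCC4006P2 and 12.6 CPM in HCC4006GR, and 44.9 CPM in HCC827P and 35.8 CPM in HCC827GR. The libraries of HCC4006P1 and HCC4006ER did not overlap for FANCD2 and MSH6 and overlapped for FANCA. How many of all genes did not overlap was not counted, and 49.0% of all genes were called in the test of this pair. ERCC1, the partner of the excision nuclease, was instead higher in HCC4006ER and HCC827GR than in their parental lines. It had 29.7 and 34.2 CPM in HCC4006P1 and 48.7 and 47.7 CPM in HCC4006ER, also without overlap. In the HCC827 pair it had 7.04 CPM in HCC827P and 17.2 CPM in HCC827GR. HCC4006P2 and HCC4006GR differed little, with 20.5 and 22.8 CPM (log2 fold change 0.21 in the fit of all libraries, edgeR adjusted p = 0.749). HCC827P had the lowest ERCC1 level of all lines.

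In the test of HCC4006ER against HCC4006P1 with 2 libraries each, 3 of 8 genes were called by edgeR, where 49.0% of all genes were. FANCD2 fell by 0.85 on the log2 scale (standard error 0.21, adjusted p = 0.0163) and MSH6 fell by 0.57 (0.13, adjusted p = 0.0123), while ERCC1 rose by 0.49 (0.14, adjusted p = 0.0284). FANCA had -0.48 (adjusted p = 0.128), PMS2 -0.23 (0.209), ERCC4 -0.17 (0.359), MGMT 0.14 (0.664) and, from 3 libraries, XPA 0.28 (0.135), none of which passed. These calls depended on single libraries. Without either HCC4006ER library fewer of these genes were called, and fewer of all genes as well. Without HCC4006P1 replicate 1 FANCA gave -0.73, and without replicate 2 PMS2 gave -0.32. Both were called there, as were more of all genes than in the main test. The edgeR fit of all 21 libraries called 0 of 8 (34.3% of all genes), with 2 at an unadjusted p under 0.05. DESeq2 called 0 of the 7 genes other than XPA (30.7% of all genes). The fit of all 21 libraries takes in the spread of the HepG2 libraries, and its standard error for FANCD2 in this pair was 0.53. In CPM 0 of 8 were past 2-fold in this pair (23.3% of all genes). Of the 49 other repair genes 7 rose and 19 fell in the edgeR test, where 24.1% of all genes rose and 24.9% fell. Their median was -0.29 beside 0.01 for all genes. ERCC6, which acts in transcription-coupled excision repair, rose by 2.95, from 42.3 to 350 CPM, while FANCI fell by 2.04, UBE2T by 1.54, DDB2 by 1.51 and EME1 by 1.32. DDB2 recognizes lesions of ultraviolet light. The proliferation genes fell in 9 of 12 and rose in 0, and their part in the fall of FANCD2 and MSH6 was not tested.

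**Figure D4:**
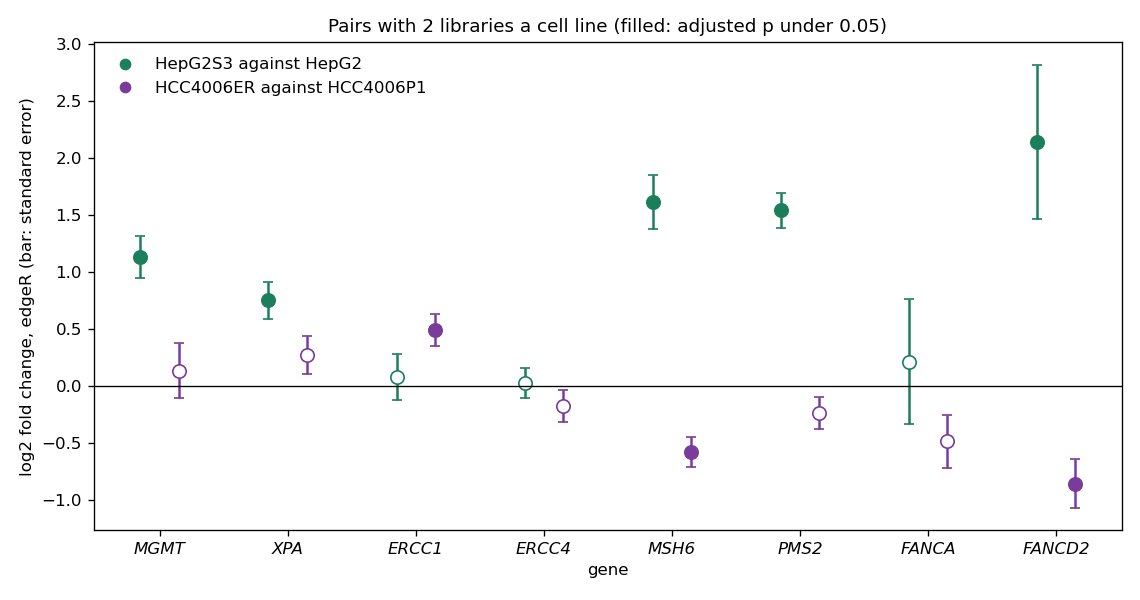
Log2 fold change of the 8 genes from edgeR with its standard error, for HepG2S3 against HepG2 (green) and HCC4006ER against HCC4006P1 (purple), filled where the adjusted p is under 0.05. FANCD2 and MSH6 lie above 0 in the first pair and below 0 in the second, and the bars of FANCA and FANCD2 are widest in the HepG2 pair.

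The change in HCC4006ER minus the change in HepG2S3 was tested as 1 contrast over the 8 libraries. It was below 0 and called for 4 of the 8 genes, where 55.9% of all genes were called and 28.2% were called below 0: FANCD2 (-3.04, standard error 0.76, edgeR adjusted p = 0.00827), MSH6 (-2.22, 0.28, adjusted p = 0.000195), PMS2 (-1.80, 0.20, adjusted p = 9.57e-05) and MGMT (-1.02, 0.30, adjusted p = 0.0177). The pairs differ in tissue, drug and parental line at once, and these cannot be told apart. MGMT lost this call without any 1 of 4 libraries, at adjusted p values from 0.0585 to 0.0777.

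In the gefitinib-resistant lines FANCA and FANCD2 were past 2-fold in HCC4006GR, both lower, the only 2 of 8 (15.1% of all genes, 7.48% lower). Their CPM ratios were 0.358 (0.301 to 0.425) for FANCA and 0.236 (0.186 to 0.296) for FANCD2, with FANCD2 at its lowest level of any line. DESeq2 called 0 of 7 genes in HCC4006GR (8.97% of all genes). The edgeR fit of all libraries called 0 of 8 there (7.94% of all genes), with 3 at an unadjusted p under 0.05. It gave FANCD2 -2.03 with a standard error of 0.81 (edgeR adjusted p = 0.182). Its spread includes that of the HepG2 libraries, which were far apart for FANCA and FANCD2, so it could miss changes in these genes. In HCC827GR ERCC1 and MSH6 were past 2-fold, 2 of 8 (18.3% of all genes), with ratios of 2.44 (1.96 to 3.05) and 0.476 (0.444 to 0.511). Both were called, ERCC1 higher (1.26, adjusted p = 0.0212) and MSH6 lower (-1.10, adjusted p = 0.0376), where 13.3% of all genes were. POLR1G, which overlaps ERCC1, had 48.0 CPM in HCC827P and 27.8 CPM in HCC827GR, a difference in the opposite direction to that of ERCC1. Without an HCC4006ER library the adjusted p of ERCC1 was 0.0525 or 0.0526, and that of MSH6 was between 0.0733 and 0.0779 without 1 library of HCC4006ER or HepG2S3. All 12 proliferation genes had values below 0 in each of these pairs, 11 of them past 2-fold in HCC4006GR and 7 in HCC827GR.

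Levels of FANCD2 and FANCA went with the proliferation genes across the lines. Over the 17 lines, Pearson's r of log2(CPM + 1) with the mean of the 11 proliferation genes was 0.92 for FANCD2, 0.73 for FANCA, 0.50 for XPA and 0.39 for PMS2. It was 0.11 for ERCC1, 0.09 for MSH6, 0.09 for MGMT and -0.33 for ERCC4. IGROV-1 and IGROV-1/CDDP had the lowest MSH6 levels, 27.5 and 19.5 CPM, at proliferation means of 7.74 and 8.07. The r of MSH6 without these lines was not computed. Without HepG2 the value was 0.91 for FANCD2, 0.78 for FANCA and 0.47 for XPA, but 0.085 for PMS2, so that of PMS2 rests on 1 line. FANCA and FANCD2 had an r of 0.85 with each other, the highest of the 28 gene pairs, and ERCC1 with its partner ERCC4 had -0.01. Lines of 1 parent share their origin and both values of a point come from the same library, so these are descriptions over 17 lines.

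**Figure D5:**
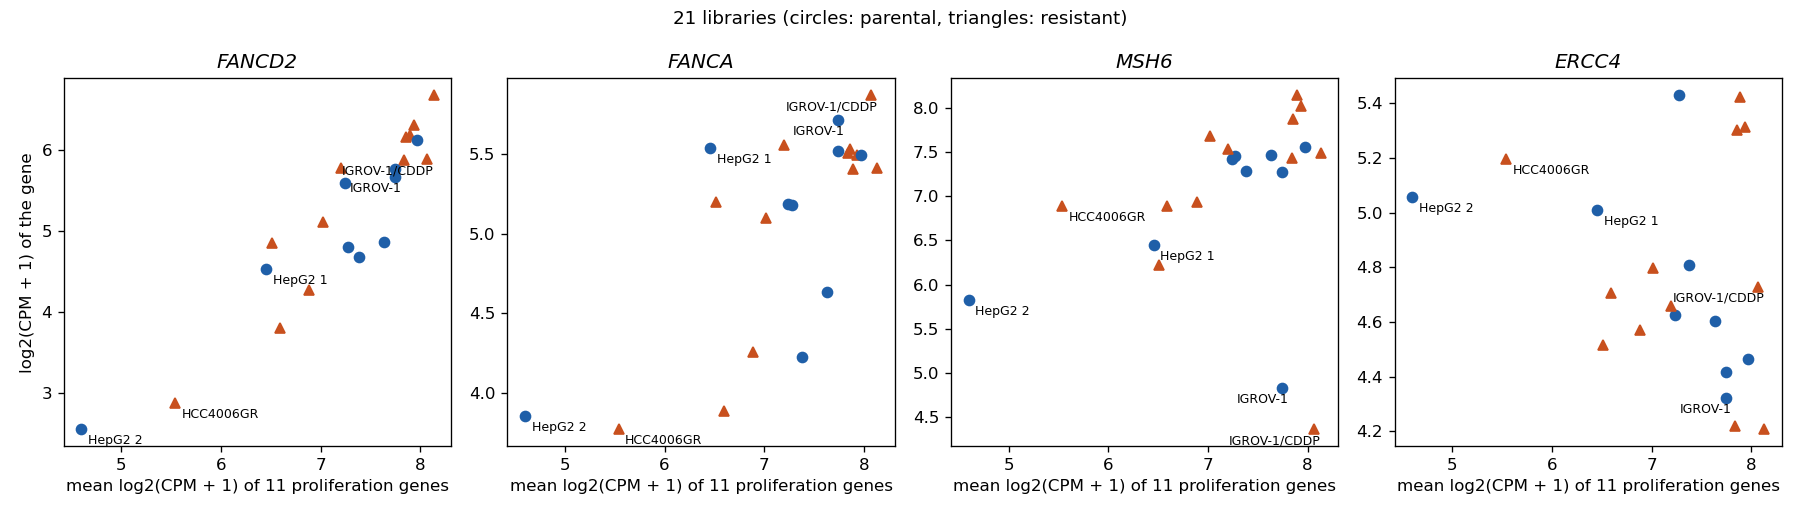
Log2(CPM + 1) of FANCD2, FANCA, MSH6 and ERCC4 against the mean log2(CPM + 1) of 11 proliferation genes in the 21 libraries, circles for parental and triangles for resistant lines. FANCD2 rises along the axis from HepG2 replicate 2 and HCC4006GR upward, while both IGROV-1 lines lie at the bottom for MSH6 at a high proliferation level.

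The genes whose levels were most like each member were taken over the same 17 lines among 14401 other genes. For FANCD2 they were RAD51AP1 (r = 0.95), PRIM1 (0.93) and SKA1 (0.93), and for FANCA SLC37A4 (0.89), TIPIN (0.88) and TTI1 (0.87). For MSH6 they were CDCA7L (0.96), EMP1 (0.93) and IL27RA (0.92), and for PMS2 PAK6 (0.87), COL4A2 (0.86) and COL4A1 (0.85). ERCC1 was most like IKZF4 (0.87), PTGR1 (0.85) and PTMS (0.85), and ERCC4 most like LINC00319 (0.86), SLC27A2 (0.85) and NAGLU (0.84). XPA was most like PYM1 (0.85), KANTR (0.83) and VAMP1 (0.83), and MGMT most like RP11-435B5.4 (0.89), MSLN (0.89) and MDH1 (0.87). The highest of many values over few lines is large by selection.

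Resistant and parental lines were last compared as a whole, over 14 profiles with the parental line as a term. None of the 8 genes was called by edgeR, and 0 of 15847 genes were (0.00%), with 722 at an unadjusted p under 0.05 and 0 of the 8 among them. DESeq2 called 97 of 18691 genes and 0 of the 8. The log2 fold changes of the 8 genes lay between -0.26 for FANCA (standard error 0.23) and 0.27 for PMS2 (0.26). The ranges of parental and resistant lines overlapped for all 8 genes. They were close for XPA, with 11.1 to 25.0 CPM in parental and 8.68 to 24.8 CPM in resistant lines, while that of FANCD2 was wider in resistant lines (6.35 to 101 CPM) than in parental lines (13.5 to 68.3 CPM) and that of PMS2 was narrower (24.3 to 38.9 CPM against 10.7 to 41.7 CPM).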

How the data were processed

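Libraries were poly(A)-selected RNA, sequenced single end. Per the labels, a stranded kit was used for all samples, while the methods also describe a 3′ kit for some, and which library used which is not given in the sources used here. The authors deposited raw read counts per Ensembl gene, made with Bowtie, TopHat, SAMtools and HTSeq on hg19 according to the submitters' notes, without normalization. Closing summary lines of HTSeq were left out of the totals on genes. Alignments that were not unique came to 19.3% to 31.9% of the sum of the gene counts and these summary lines.

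CPM were computed from the total on genes, averaged per cell line, and compared as log2(CPM + 1). This scale understates the change of low genes. A change was called past 2-fold among genes with a mean of at least 1 CPM. Intervals of CPM ratios are exact conditional binomial intervals that cover counting error alone, as duplicates from PCR are not separate molecules. For HCC4006P1 replicate 1 the total was divided by the share of replicate 2's counts outside the missing stretch of 8694 genes, and these genes were left out of fits that use that library. For XPA the fits were repeated without it.

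Tests used the quasi-likelihood test of edgeR 4.0.16 with TMM and filterByExpr in R 4.3.3, with Benjamini-Hochberg adjustment over all genes and a threshold of 0.05, and DESeq2 1.42.0 as an alternative. The tests were tested on simulated counts. Of the 53515 genes, 45100 were matched to a GENCODE annotation of GRCh37. Alternatives were another normalization, no filter, a pseudocount of 0.1 CPM, a 1.5-fold threshold, a replicate block, and each library or parental line left out. The members and gene lists were chosen with earlier results of these data known. Of the listed genes, GTF2H5 and PECAM1 are not analysed here. Named are the 8 members, other listed repair genes past 2-fold in IGROV-1/CDDP or called in a pair with 2 libraries a line (at most the 5 largest per comparison), the 3 genes most like each member and genes that overlap members.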

Additional observations from a re-analysis of the deposited data

Results flagged for a closer look

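FANCD2, MSH6, PMS2 and MGMT differed in their change between the pairs with 2 libraries a line. The log2 change in HCC4006ER minus that in HepG2S3 was -3.04 for FANCD2, -2.22 for MSH6, -1.80 for PMS2 and -1.02 for MGMT. Each had an edgeR adjusted p under 0.05, where 55.9% of all genes were called and 28.2% were called below 0. The call of MGMT was lost when some single libraries were left out. Tissue, drug and parental line differ together between these pairs and cannot be told apart, and the summed level of the 11 proliferation genes rises in HepG2S3 and falls in HCC4006ER beside them. No cause was tested.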

How the results depend on the processing

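Single libraries moved the counts of calls, for these genes and for all genes. The fit of all lines called 12 of 70 values for a gene in a pair, 22 or 20 without 1 HepG2 library, and 9 to 22 when any 1 library was left out. In HepG2S3 against HepG2 the 5 calls became fewer without HepG2S3 replicate 1 and more without HepG2 replicate 1. The share of all genes called moved the same way. Without 1 library FANCA lay between -0.42 and 1.36 and ERCC1 between -0.15 and 0.34, both lowest without HepG2 replicate 2, and ERCC4 between -0.010 and 0.10, lowest without HepG2S3 replicate 2. In HCC4006ER against HCC4006P1 the 3 calls became fewer without either HCC4006ER library, as did those of all genes. They became 0 with all genes kept (21.4% of all genes) and 0 in the fit of all 21 libraries (34.3%). Without 1 library MGMT lay between -0.093 and 0.40 in this pair, lowest without HCC4006P1 replicate 2. A threshold of 1.5-fold gave 24 of 80 values in place of 14, because it is lower by construction. With the uncorrected total of HCC4006P1 replicate 1 the median PMS2 level was 28.7 CPM rather than 26.7. The cause of the other changes was not tested.

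Replicate numbers are shared between lines but do not show a pairing. Deviations of same-numbered libraries correlated at 0.05 in the HepG2 pair and at 0.44 in the HCC4006 pair, over genes. With the replicate block 5 of 8 genes were called in HepG2S3, where 62.4% of all genes were. In HCC4006ER 4 of 7 were called (60.9% of all genes), with FANCA added at -0.48 (edgeR adjusted p = 0.00784). In the difference between the pairs 4 of 7 were called (56.1% of all genes). Of 478 values of single genes in tests under an alternative, 433 kept their direction and side of the threshold, 34 lost a call, 7 gained 1 and 4 turned. XPA was refitted under few alternatives, since most fits leave its stretch out. Lines with 1 library have no spread of their own, which limits all their tests.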
